A study of Homo sapiens with 42 samples.

Results

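The comparison described here is the response of centromeric DNA in TOP2A pulldown to etoposide, read in 8 pulldown libraries. Its members were all 2523 named regions of the deposited count table, the same 2523 that the whole series holds, and the 8 libraries were chosen from 42 by their titles. The tested libraries were TOP2A pulldowns from KG-1 cells kept in 100 µM etoposide for 1 h (n = 4), and they were set against TOP2A pulldowns from KG-1 cells without drug (n = 4). KG-1 is an established line of myelogenous leukaemia, and all libraries, with and without drug, came from this single line. Etoposide with TOP2B pulldown, etoposide with untouched input, and the matching TOP2B and input libraries without drug (n = 4 each) served as comparison. In all of them chromatin was sheared without formaldehyde, and the recovered DNA was treated with TDP2 and cut with BsmAI before library construction, per the labels' protocols. Nothing in the labels says whether the 4 replicas were separate cultures, so the p-values below measure only spread between these samples, which may be technical.

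Topoisomerase 2 passes one DNA duplex through a cut that it makes in another, and it stays joined to the cut ends by a covalent bond until it reseals them. Etoposide slows the resealing, so the enzyme remains trapped on DNA, and TDP2 is an enzyme that frees the trapped 5′ ends. TOP2A, the form made mostly in dividing cells, acts at centromeres, where sister chromatids are held together longest. Human centromeres are built of satellites, DNA repeated head to tail, and most chromosomes carry a higher-order alpha satellite array on which the kinetochore forms. Divergent and monomeric alpha satellite, human satellites (HSat), beta and gamma satellite and the less repetitive transition DNA lie around that array. Region names give the class, the chromosome and a running number, so ct_20_26 is the transition region numbered 26 on chromosome 20 of the T2T-CHM13 assembly. No coordinates or sequences of the regions were used here.

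Region reads numbered 23900 to 577168 in the etoposide libraries and 95012 to 589193 in the no-drug libraries. The etoposide library of replica 3 was the shallowest, with 23900 region reads against 95012 without drug, and 0 reads of that library allow a share of up to 0.0126% of region reads. Replica 1 had 38 bp reads and the other replicas 50 bp. Replicas 1 and 2 were sequenced in orders of their own, while replicas 3 and 4 shared an order. Named regions held 6.65% to 7.06% of region and no-feature reads with etoposide and 6.72% to 7.08% without. With and without drug together, this share was 6.65% to 7.02% in input and 6.63% to 7.10% in TOP2B pulldown. These ranges overlapped with those of TOP2A. Of the 2523 regions, 395 had no read in any of the 8 TOP2A libraries, 1068 had enough reads for the edgeR fit, and 257 had a mean of at least 50 reads. Changes are given as the log2 ratio of the share of region reads, etoposide over no drug, within each replica, and a change common to all regions would not show on this scale.

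No region passed the test. The edgeR quasi-likelihood fit called 0 of 1068 regions at a Benjamini-Hochberg adjusted p under 0.05, which is 0% of those tested. An unadjusted p under 0.05 was reached by 7 regions, and the lowest adjusted p was 0.999. For 1068 tests 53.4 would be expected at that level by chance, so this fit gave fewer than that. When reads were summed over each class on each chromosome, 0 of 172 sums were called and the lowest adjusted p was 0.99. Of these sums 0 had an unadjusted p under 0.05, where 8.6 would be expected by chance. Setting the change in TOP2A against that in input gave 0 calls in 1068 regions, with 5 below 0.05 before adjustment. Against the change in TOP2B there were 0 calls in 1068, with 6 below 0.05 before adjustment. DESeq2 likewise made 0 calls, and before adjustment 14 regions were below 0.05 for TOP2A alone, 5 against input and 10 against TOP2B. The median biological coefficient of variation in the edgeR fit was 0.527, which sets how large a change this fit could call.

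Replica 3 ran against the other 3 replicas in 5 of the 12 classes: monomeric and divergent alpha satellite, HSat3, gamma satellite and the other centromeric satellites. Monomeric alpha satellite, the scattered copies beside the arrays, held 0.303%, 2.23%, 4.13% and 0.389% of region reads with etoposide in replicas 1 to 4, against 0.427%, 3.86%, 0.702% and 0.516% without drug. With etoposide the share was thus lower in replicas 1, 2 and 4 and higher in replica 3, and the levels of the 2 groups overlapped. Gamma satellite, a repeat found beside the arrays of a few chromosomes, did the reverse. It held 0.769%, 0.469%, 0.364% and 0.910% with etoposide, against 0.493%, 0.267%, 1.24% and 0.583% without drug. In the levels, the etoposide library of replica 3 and both libraries of replica 2 were high in monomeric alpha satellite, and the other 5 libraries were low. After removal of the group means, the etoposide library of replica 3 correlated across regions at -0.31 with the no-drug library of its own number and at 0.80 with that of replica 2. The labels' replica numbers were kept, and every change given for replica 3 rests on them. The counting errors of these log2 changes, between 0.04 and 0.08 for monomeric alpha satellite and 0.05 and 0.16 for gamma satellite, were much smaller than the gap between replica 3 and the others.

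**Figure D1:**
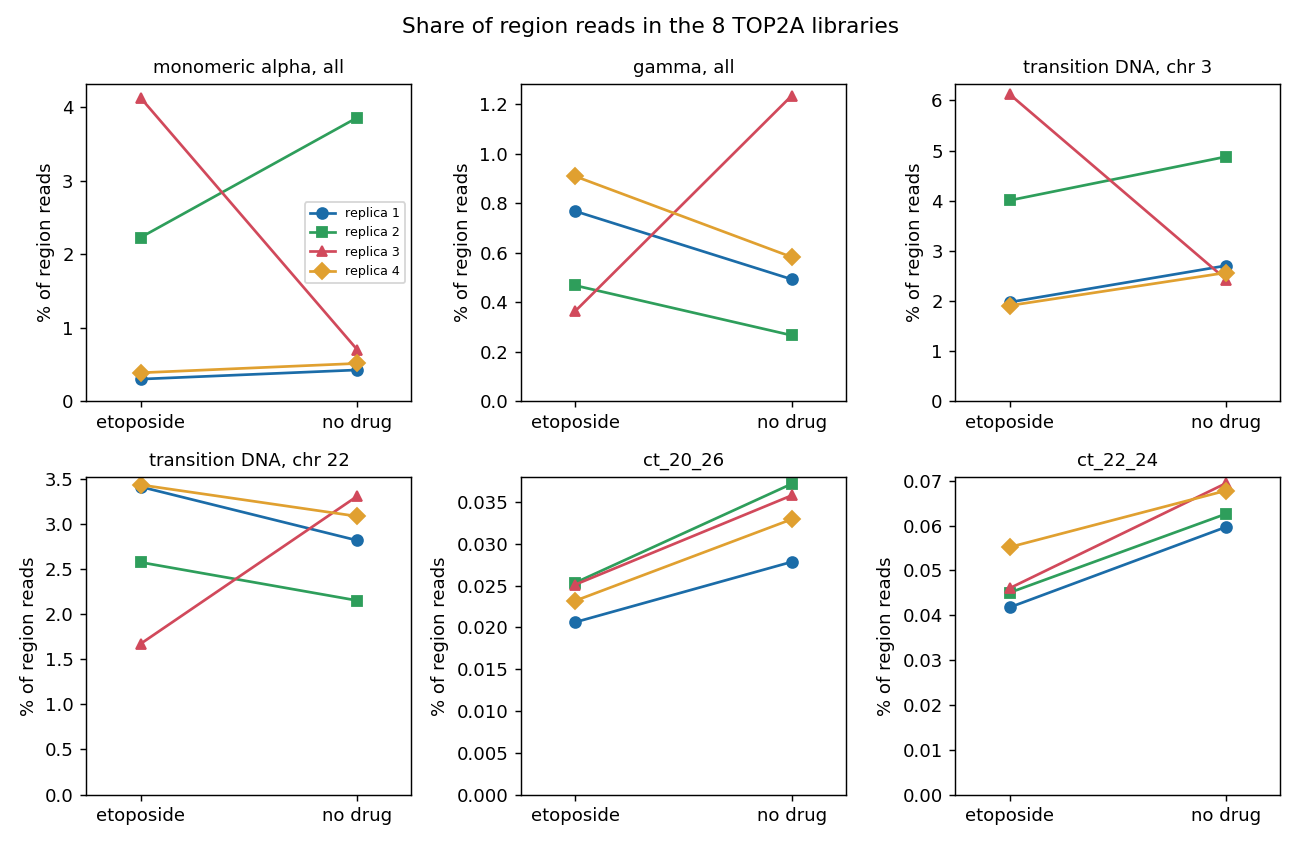
Share of region reads (%) in the 8 TOP2A libraries, etoposide left and no drug right, with a line and colour for each replica and no error bars. For monomeric alpha satellite, gamma satellite and the transition DNA of chromosomes 3 and 22 the line of replica 3 slopes against the others; for ct_20_26 and ct_22_24 all 4 lines slope the same way.

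The opposition held region by region and not only in the class sums. All 17 monomeric alpha satellite regions with at least 50 reads were lower with etoposide in replica 1, in replica 2 and in replica 4, and all 17 were higher in replica 3. Their median log2 changes were -0.71, -0.73, 2.64 and -0.57 in replicas 1 to 4. The most abundant of them, mon_8_1, had 178, 223, 141 and 78 reads with etoposide, against 125, 3049, 111 and 99 without drug, and its changes were -0.71, -0.72, 2.33 and -0.57. The largest spread among monomeric regions was that of mon_5_1, with changes of -0.76, -0.40, 3.50 and -1.45. Summed by chromosome, monomeric alpha satellite was higher in replica 3 on 16 of 16 chromosomes, by 1.51 on chromosome 12 to 3.64 on chromosome 5. It was lower on 14 of 16 in replica 1, 16 of 16 in replica 2 and 14 of 16 in replica 4, and the exceptions lay on chromosomes 14, 16 and 22. The minimum of 50 reads is a mean of raw reads over 8 libraries. Monomeric alpha satellite had 22716 reads without drug in replica 2, against 667 to 1748 in each other library. Regions and sums passed largely through that library, which favours lower values with etoposide in replica 2. The counts of 17 and of 16 in that replica are therefore descriptions only. The class sum, which had no minimum, was -0.79 in replica 2.

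Gamma satellite regions formed the mirror image. All 6 with at least 50 reads were higher in replicas 1, 2 and 4 and lower in replica 3, with medians of 0.62, 0.87, -1.55 and 0.81. The 5 of them on chromosome 8 carry the same GSAT label and share sequence, so they are not independent. The leading one, gsat_8_7, had 1305, 103, 30 and 516 reads with etoposide, against 355, 515, 375 and 272 without drug. Its changes were 0.66, 0.74, -1.63 and 0.70, with counting errors of 0.09, 0.15, 0.27 and 0.11. The single region on another chromosome, gsat_12_2 with a GSATII label, had 0.62, 0.02, -0.91 and 0.87. By label, the GSAT regions changed by 0.64, 0.88, -1.83 and 0.67 and the GSATII regions by 0.52, 0.00, -1.57 and 0.54. GSATX regions changed by 0.70, 0.86 and 0.52 in replicas 1, 2 and 4, and had 0 reads in the etoposide library of replica 3 against 22 without drug. The etoposide library of replica 1 had 4438 gamma satellite reads, against 87 to 1649 in each other library. The minimum of 50 reads thus favours regions higher with etoposide in replica 1.

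Over all 257 regions with at least 50 reads, 128 changed in the same direction in replicas 1, 2 and 4. Of these 128, 107 went the other way in replica 3 and 21 the same way. Among the class sums per chromosome, 54 of 85 had 1 direction in replicas 1, 2 and 4, and 51 of those 54 were opposite in replica 3. Across the 257 regions, the changes of replicas 1, 2 and 4 correlated with each other at Pearson r of 0.34 to 0.53, and with those of replica 3 at -0.49 to -0.52. These are descriptions, since regions share the libraries and are not independent. Regions of 1 class may also share base composition, which was not measured. In TOP2B, 62 regions had 1 direction in replicas 1, 2 and 4 and 25 of these were opposite in replica 3, while in input the counts were 48 and 14.

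**Figure D2:**
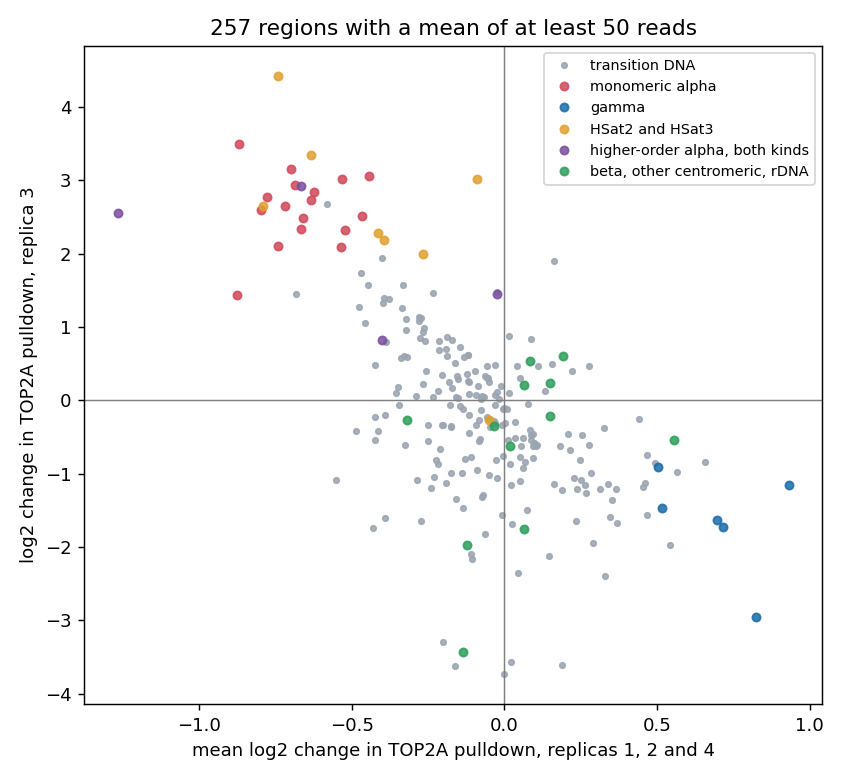
Each point is 1 of 257 regions; the x axis is the mean log2 change in TOP2A pulldown over replicas 1, 2 and 4 and the y axis the change in replica 3, coloured by class, with no error bars. Monomeric alpha satellite lies at the upper left and gamma satellite at the lower right.

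Untouched input and TOP2B did not follow TOP2A evenly. In replica 3 the TOP2A changes correlated across the 257 regions with those of TOP2B (r = 0.75) and of input (r = 0.69). In replica 4 the same correlations were -0.50 and -0.66, in replica 2 0.01 and -0.16, and in replica 1 0.66 and 0.27. Gamma satellite in replica 4 changed by 0.64 in TOP2A pulldown, against -0.06 in TOP2B pulldown and -1.67 in input. Divergent alpha satellite there changed by -0.17 in TOP2A pulldown, against 3.11 in TOP2B pulldown and 2.27 in input. In replica 3 the TOP2A, TOP2B and input changes of gamma satellite were -1.76, -1.19 and -0.29. Reads set aside for low mapping quality made up 22.1%, 52.1%, 36.6% and 40.4% of reads in the etoposide TOP2A libraries. Without drug they made up 28.4%, 28.8%, 51.8% and 42.9%. They were thus more frequent with etoposide in replica 2 and less frequent in the others. Their part in the changes was not tested.

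**Figure D3:**
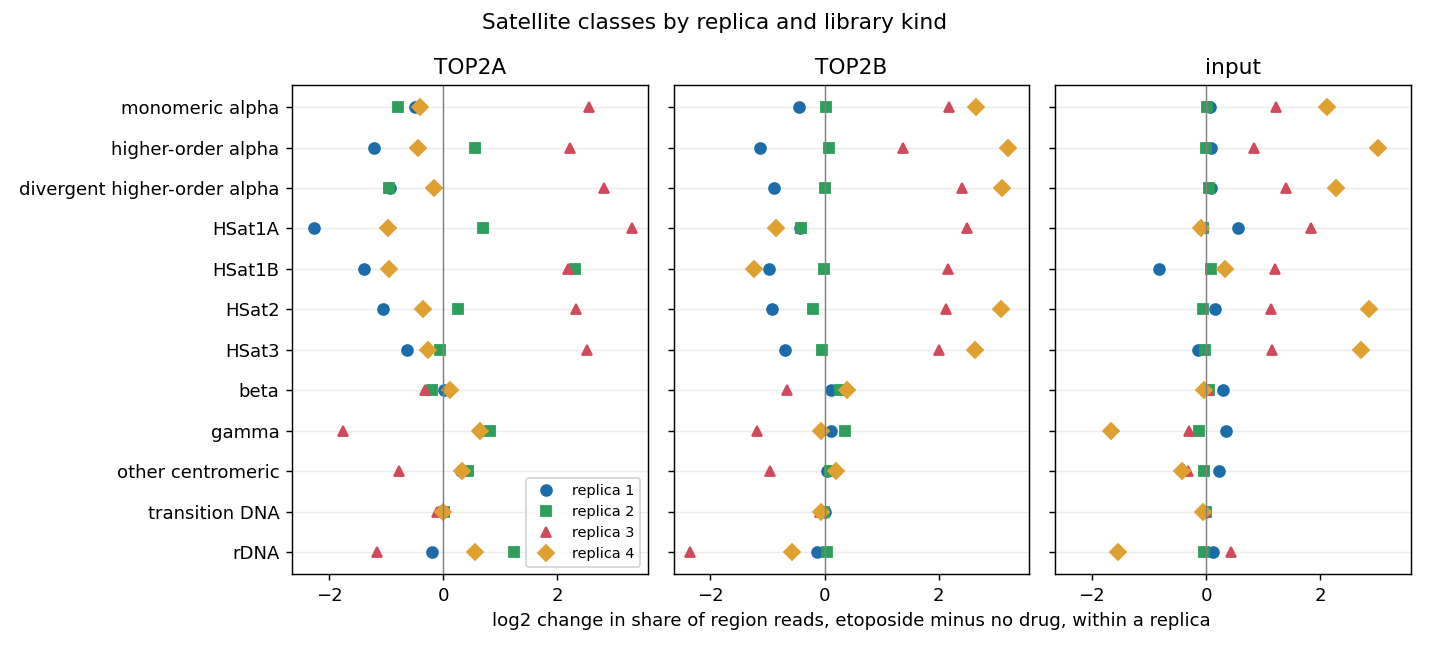
Log2 change in the share of region reads, etoposide minus no drug, for 12 classes (rows) in TOP2A pulldown, TOP2B pulldown and input, with 1 marker for each replica and no error bars. Replica 3 is on the same side in all 3 panels for monomeric alpha satellite and gamma satellite, and replica 4 of monomeric alpha satellite is on the low side in TOP2A and on the high side in TOP2B and input.

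In replica 2 the live higher-order arrays and HSat1 were higher with etoposide, unlike monomeric alpha satellite, and HSat2 differed by chromosome. The 6 most abundant arrays whose label ends in L, for the live array on which the kinetochore forms, were examined singly. The array of chromosome 8, hor_8_2, had 8, 90, 17 and 5 reads with etoposide against 11, 270, 39 and 9 without drug, which gave changes of -1.66, 1.47, 0.82 and -1.02. The array of chromosome 16, hor_16_4, changed by -2.62, 0.31, 1.20 and -0.66, and that of chromosome 12, hor_12_2, by -1.76, 0.82, 0.61 and 0.02. Those of chromosomes 17, 18 and 22 (hor_17_2, hor_18_5 and hor_22_9) were also lower in replica 1 and higher in replicas 2 and 3. All 6 arrays were therefore higher with etoposide in replicas 2 and 3 and lower in replica 1. The reads behind these values are few, since a mean of 23.9 to 56.1 reads fell in each. Over all live arrays the change was -1.39, 0.87, 2.04 and -0.35, while the other higher-order arrays had -0.53, -0.48, 3.15 and -1.07. In TOP2B pulldown the live arrays changed by -1.10, 0.12, 1.18 and 2.97, with the signs of TOP2A in replicas 1, 2 and 3. In input they changed by 0.06, 0.00, 0.85 and 3.12.

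HSat2 on chromosome 1 and HSat1A on chromosome 13 were higher in replicas 2 and 3 and lower in replicas 1 and 4. Summed by chromosome, HSat2 changed by -1.26, 1.12, 2.14 and -0.84 on chromosome 1, by -1.31, -0.04, 2.21 and -0.37 on chromosome 16 and by -0.28, -0.998, 2.63 and 0.43 on chromosome 7. The region hsat2_1_6 had 25, 238, 33 and 20 reads with etoposide against 32, 799, 27 and 34 without drug, and changed by -1.57, 1.31, 2.28 and -0.98. The region hsat1A_13_1, of an AT-rich satellite, changed by -3.15, 1.39, 3.02 and -0.87 with 2, 17, 80 and 21 reads under etoposide against 9, 55, 39 and 33 without drug. The divergent array dhor_6_1 instead followed monomeric alpha satellite, with -0.67, -0.92, 2.92 and -0.41, and dhor_3_2 had -2.38, -1.19, 2.55 and -0.23. Leaving chromosome Y aside, HSat3 was higher in replica 3 on 7 of 7 chromosomes and lower in replica 1 on 7 of 7, with both signs in replicas 2 and 4. Its leading region, hsat3_9_3, had changes of -0.31, -0.06, 3.01 and 0.09. The widest spread of all belonged to hsat3_17_1, whose changes of 0.22, -0.77, 4.42 and -1.67 (SD 2.69) rested on 9, 24, 13 and 3 reads with etoposide against 3, 347, 2 and 9 without drug. By subfamily, HSat3 regions with an A label changed by -0.54, -0.44, 2.44 and -0.49 and those with a B label by -0.37, -0.30, 2.79 and 0.22.

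Beta satellite as a whole varied little between replicas (SD 0.20), and the other centromeric satellites as a whole varied more (SD 0.57). By chromosome beta satellite varied too, with an SD of 0.28 on chromosome 22 to 0.91 on chromosome 8, Y not counted. Beta satellite regions with a label of LSAU composite changed by 0.21, -0.32, -0.36 and 0.25, and the remaining beta regions by -0.22, -0.11, -0.27 and -0.05. The remaining beta regions were thus lower in 4 of 4 replicas, with a mean of -0.16 (SD 0.10). With 4 pairs the exact two-sided sign permutation test can do no better than 2 of 16 sign patterns, so it cannot pass 0.05. The leading beta region, bsat_1_1, had 0.34, -0.22, -0.21 and 0.33. The other centromeric satellites, a class that holds minor families, were higher in replicas 1, 2 and 4 and lower in replica 3 on 9 of 14 chromosomes, Y not counted. The SD of their changes was 0.29 to 1.50 by chromosome, and the widest was that of chromosome 17, with 0.55, 0.74, -2.43 and 0.40. On chromosome 19 they changed by 1.56, 0.94, -1.13 and 0.93. There the region censat_19_11, labelled HSat4, had 107, 20, 5 and 84 reads with etoposide against 9, 84, 37 and 25 without drug, which gave 2.28, 1.01, -0.78 and 1.50. Its mean was 1.00 (SD 1.30, n = 4), and edgeR gave an adjusted p of 0.999.

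The rDNA arrays encode the large ribosomal RNAs and lie on the short arms of the acrocentric chromosomes. The array of chromosome 21, rDNA_21_1, had 77, 24, 16 and 109 reads with etoposide against 29, 119, 95 and 56 without drug, and its changes were 0.17, 0.77, -0.54 and 0.73. In the etoposide library of replica 3 the arrays of chromosomes 13, 14, 15 and 22 had 0 reads, against 24, 8, 3 and 16 without drug. The 5 arrays are near-identical copies, so how reads were split among them is uncertain. At these depths a change of rDNA was not detectable in single arrays.

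Transition DNA held 88.1% to 96.9% of region reads with etoposide and 91.1% to 97.1% without, and it also differed by chromosome. On chromosome 3 it took 1.98%, 4.01%, 6.13% and 1.91% of region reads with etoposide, against 2.71%, 4.88%, 2.43% and 2.57% without drug. On chromosome 22 it took 3.41%, 2.57%, 1.67% and 3.43% with etoposide, against 2.81%, 2.15%, 3.30% and 3.08% without drug. The changes on chromosome 3 were -0.45, -0.28, 1.33 and -0.43 in replicas 1 to 4, with counting errors of 0.02 to 0.05. Chromosome 3 was the lowest of all chromosomes in replicas 1, 2 and 4 and the highest in replica 3. The changes on chromosome 22 were 0.28, 0.26, -0.98 and 0.15, the highest of all chromosomes in replica 1 and the lowest in replica 3.

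Of 24 chromosomes, Y included, 17 had 1 direction in replicas 1, 2 and 4 and the opposite one in replica 3. The chromosomes 3, 4, 5, 6, 12, 21 and X were lower in replicas 1, 2 and 4 and higher in replica 3, and chromosome 8 was too by a small margin, with 0.07 in replica 3. The chromosomes 2, 7, 10, 11, 14, 16, 17, 20 and 22 were higher in replicas 1, 2 and 4 and lower in replica 3. Chromosome 6 changed by -0.34, -0.27, 1.22 and -0.28, and chromosome 17 by 0.20, 0.30, -0.96 and 0.14. The distance from the lowest to the highest chromosome was 0.73, 0.62, 2.32 and 0.60 in replicas 1 to 4 of TOP2A. In TOP2B it was 0.53, 0.11, 2.31 and 1.21, and in input 0.27, 0.04, 0.79 and 1.88. In input of replica 4 chromosome 3 was again the highest, at 1.06, and chromosome 22 the lowest, at -0.82, the opposite of TOP2A in the same replica.

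**Figure D4:**
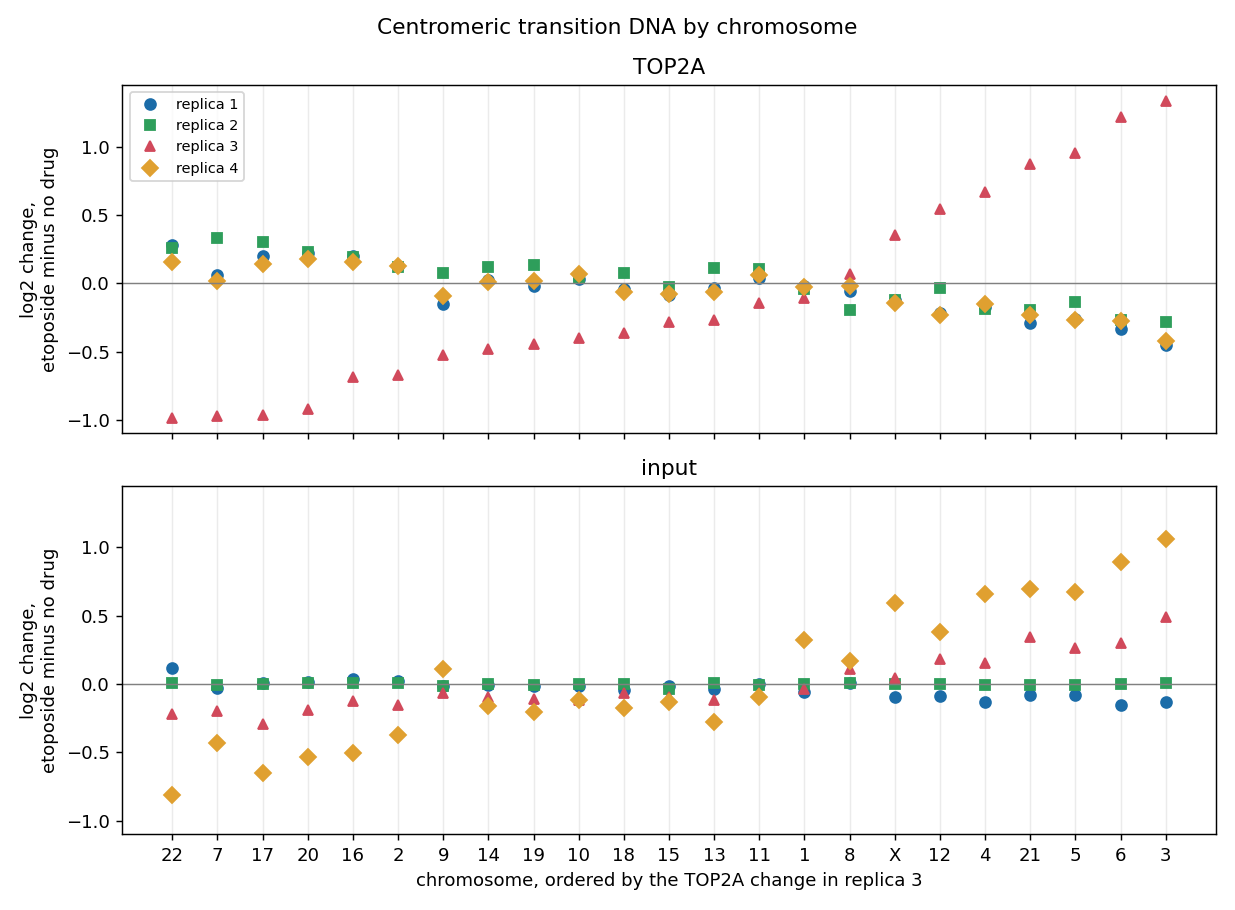
Log2 change in the share of region reads for transition DNA, etoposide minus no drug, on 23 chromosomes in TOP2A pulldown (top) and input (bottom), ordered by the TOP2A change in replica 3, with 1 marker for each replica and no error bars. In TOP2A the replica 3 points climb to the right while the other 3 replicas descend; in input it is replicas 3 and 4 that climb.

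Most of the variation among transition regions lay within chromosomes. Chromosome took 16.3%, 25.0%, 21.7% and 18.1% of the variance among 210 transition regions in replicas 1 to 4. Each region counted equally and counting error was not removed, so part of the variation within chromosomes is counting error. Summed over all chromosomes, the long outer stretches that reach into the arms changed little. The sums changed by -0.01, -0.06, 0.04 and 0.00 on the short arms and by 0.00, -0.01, 0.06 and 0.00 on the long arms. Single outer stretches changed more and in both directions, since in replica 3 ct_17_31 had -1.09 and ct_8_17 had 0.80. The inner regions, those lying among satellites, were summed likewise. They had 0.02, 0.11, -0.60 and -0.02 on the acrocentric chromosomes and 0.00, 0.10, -0.41 and -0.02 on the others. On chromosome 19, the 29 regions with at least 50 reads ranged in mean change from -0.93 in ct_19_25 to 0.60 in ct_19_35. Without replica 3 the mean of ct_19_25 was -0.0004. On chromosome 6 all 6 regions, and on chromosome 3 all 3, were lower in replicas 1, 2 and 4 and higher in replica 3. On chromosome 7 all 17 were higher in replica 2, while both signs occurred in the other replicas. The spread between replicas fell little with depth. The median SD was 0.46 for the 113 transition regions with 50 to 200 reads, 0.41 for the 47 with 200 to 1000 and 0.41 for the 50 above 1000. The median counting error of the shallowest replica was 0.58, 0.29 and 0.09 in the same bins.

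The 5 most abundant regions were all transition DNA, and none kept 1 direction in 4 replicas. The largest, ct_8_1 on the short arm side of chromosome 8, held 6.76%, 5.33%, 5.80% and 6.57% of region reads with etoposide, against 6.76%, 5.82%, 7.06% and 6.45% without drug. Its mean change was -0.09 (SD 0.14, n = 4). On the long arm side of chromosome 17, ct_17_31 had changes of 0.24, 0.34, -1.09 and 0.17, and ct_16_69 on chromosome 16 had 0.13, 0.09, -0.63 and 0.08. The region ct_18_10 had -0.06, 0.07, -0.31 and -0.10. The region ct_8_17, on the long arm side of chromosome 8, ran the other way with -0.15, -0.39, 0.80 and -0.10. The 2 ends of the chromosome 8 centromere therefore differed in replica 3, where ct_8_1 had -0.28.

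Some transition regions were lower in every replica, replica 3 included. Of 257 regions, 19 were lower in 4 of 4 replicas, which is 7.39%, and 2 were higher, which is 0.778%. Random signs would give 1 direction in 2 of 16 sign patterns, or 12.5%, and 8.17% of the 257 regions had 1 direction. In TOP2B the shares were 10.5% lower and 3.61% higher of 332 regions, and in input 3.57% lower and 12.6% higher of 588, each with its own minimum of 50 reads. The share of regions lower in 4 of 4 was thus below that of TOP2B and above that of input, a difference that was not tested. Of the 19 regions, 18 were transition DNA (94.7%), beside 210 of all 257 (81.7%), and 16 had a mean under 150 reads (84.2%), beside 137 of all 257 (53.3%). None of the 19 was lower in 4 of 4 input replicas and 4 were lower in 4 of 4 TOP2B replicas. The median of their mean changes was -0.41 with TOP2A, against -0.06 with TOP2B and 0.07 for input. TOP2A was what selected them, so its median is a description only.

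The steadiest of these was ct_20_26 on chromosome 20. It had 119, 18, 6 and 42 reads with etoposide against 69, 219, 34 and 51 without drug, or 0.0206%, 0.0253%, 0.0251% and 0.0232% of region reads against 0.0278%, 0.0372%, 0.0358% and 0.0329%. Every etoposide share was below every no-drug share. The changes were -0.44, -0.52, -0.42 and -0.50, with a mean of -0.47 (0.72-fold, SD 0.05, n = 4). Counting alone gives errors of 0.22 to 0.62 on these changes, more than the spread between them. In TOP2B the changes were -0.16, 0.09, 0.20 and -0.12 and in input 0.22, -0.01, -0.16 and 0.53. The edgeR estimate was -0.47 (SE 0.18, adjusted p = 0.999), and that for TOP2A minus input was -0.50 (adjusted p = 1.00).

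On chromosome 22, ct_22_24 had 241, 32, 11 and 100 reads with etoposide against 148, 369, 66 and 105 without drug. Its shares were 0.0418% to 0.0552% with etoposide and 0.0597% to 0.0695% without, with no overlap, and its changes were -0.52, -0.46, -0.54 and -0.30. Also on chromosome 22, ct_22_90 changed by -0.61, -0.14, -1.61 and -0.42, and on chromosome 14 ct_14_72 changed by -0.42, -0.41, -1.74 and -0.46. The etoposide values of replica 3 in these last 2 regions rest on 3 reads each. On chromosome 9, ct_9_36 had -0.64, -0.41, -1.08 and -0.61, with overlapping groups. On chromosome 10, ct_10_3 had -0.17, -0.31, -1.64 and -0.34. Groups that did not overlap were found in 6 regions lower with etoposide, 2.33% of 257, and in 0 regions higher, 0% of 257. Besides the 4 given above these were ct_22_98 and ct_18_9, which were singled out after their values were seen.

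The lowest mean changes among the 19 regions were decided by replica 3. The region ct_20_32 had 111, 20, 0 and 44 reads with etoposide against 61, 178, 24 and 39 without drug, and its mean of -1.03 was -0.16 without replica 3. The region censat_8_3, an ACRO composite on chromosome 8, had 0 etoposide reads in replica 3 against 21 without drug, and its mean of -0.96 was -0.14 without that replica. A further 2 regions with many reads were lower in 4 of 4: ct_8_16 by -0.07, -0.06, -0.23 and -0.04 and ct_X_1 by -0.09, -0.0043, -0.13 and -0.14. Of the 2 regions higher in 4 of 4, ct_2_43 on chromosome 2 changed by 0.18, 0.06, 0.13 and 0.16 (mean 0.13, SD 0.05). It had 1264, 112, 44 and 356 reads with etoposide against 479, 894, 161 and 272 without drug, and its shares overlapped between the groups. Beside it, ct_2_44 had -0.01, 0.02, -0.12 and -0.02. The other, ct_8_3 on chromosome 8, changed by 0.06, 0.10, 0.47 and 0.67.

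**Figure D5:**
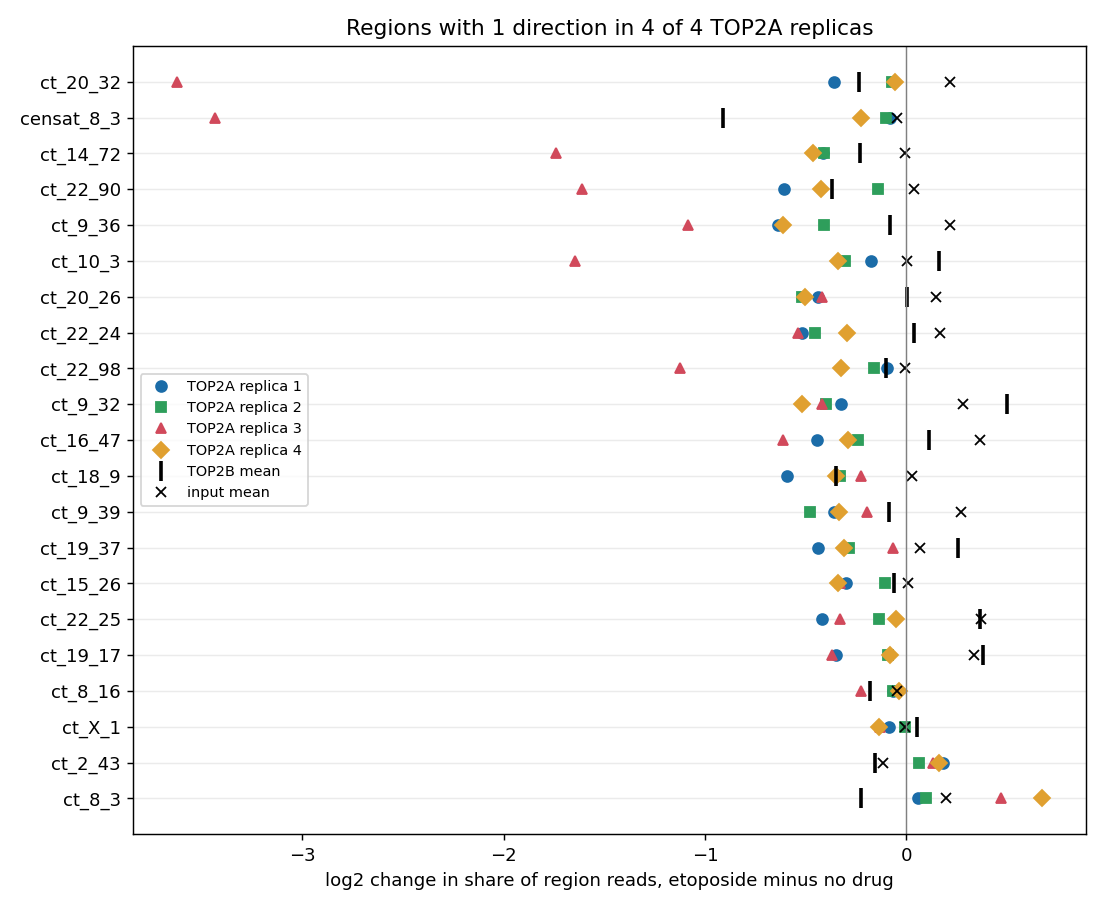
The 21 regions with 1 direction in 4 of 4 TOP2A replicas (rows), with the log2 change of each TOP2A replica as a coloured marker and the TOP2B and input means over 4 replicas as black marks. ct_20_26 and ct_22_24 have all 4 TOP2A markers between -0.54 and -0.30, and ct_20_32 and censat_8_3 have replica 3 far to the left of the rest.

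Among the class sums per chromosome with at least 50 reads, 3 of 85 were lower in 4 of 4 replicas, 3.53%, and 0 were higher, 0%. Transition DNA of chromosome 1 changed by -0.02, -0.04, -0.11 and -0.03, and that of chromosome 15 by -0.09, -0.03, -0.28 and -0.08. Beta satellite of chromosome 19 changed by -0.10, -0.07, -0.81 and -0.02. These sums were picked for having 1 sign in all replicas, so the exact sign test adds nothing to that count, and over all 85 sums its lowest adjusted p was 1. Leaving chromosome Y aside, the highest mean changes were 0.78 for higher-order alpha satellite of chromosome 18 and 0.69 for HSat3 of chromosome 9. The lowest were -0.40 each for the other centromeric satellites of chromosome 8 and higher-order alpha satellite of chromosome 16. Without replica 3 these 4 means were 0.05, -0.07, -0.11 and -0.97.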

How the data were processed

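Per the submitters' processing notes, Trimmomatic 0.36, BWA 0.7.17, HTSeq (version string 2.7.13) and the T2T-CHM13 build were used. The deposited values are raw read counts per region; the sources used here give neither the mapping quality limit nor region coordinates. Reads given to no region, of low quality or ambiguous were left out of region totals. edgeR 4.0.16 (R 4.3.3, TMM, filterByExpr with a minimum count of 10, quasi-likelihood) was fitted to the 24 etoposide-series libraries in 6 groups without a replica term. The test was run on simulated counts with less spread than these data and no replica effect. That run does not show how large a change could be called here. Within-replica changes are log2 ratios of (reads + 0.5) over region reads, tested by exact two-sided sign permutation of the mean. Counting errors assume Poisson counts and cover counting only.

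The labels give same-numbered libraries 1 replica and sequencing order. After removal of group means, 3 of 4 TOP2A pairs correlated above 0.1 (-0.31 to 0.86, replica 3 the exception). No library pair was identical. Alternatives were a replicate block, DESeq2 1.42.0, voom (limma 3.58.1), other scalings and filters, and leaving out each replica.

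The rule for named regions took up to 8 of the lowest and 8 of the highest regions by mean change that kept 1 direction in 4 of 4 replicas, the 5 most abundant, the most abundant of each class, the 4 with the smallest and the 4 with the largest SD, the 6 most abundant live arrays, and all rDNA arrays. Other regions given are examples chosen with values in view. Members and lists were chosen with earlier results of these data known.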

Additional observations from a re-analysis of the deposited data

Results flagged for a closer look

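Among 12 classes, the transition DNA of 23 chromosomes and 41 named regions, 26 of 76 sets of 4 within-replica changes had 1 replica far from the other 3, and in all 26 it was replica 3. The measure is the gap to the nearest value over the whole range, set against Dixon's critical value at 95% for 4 values; chance flags about 1 in 20 groups, and these sets share libraries. For the classes it was 0.841 in transition DNA, 0.896 in the other centromeric satellites, 0.885 in monomeric alpha satellite and 0.932 in gamma satellite. For transition DNA by chromosome it was 0.985 on chromosome 2, 0.905 on chromosome 3, 0.958 on chromosome 4, 0.893 on chromosome 5 and 0.957 on chromosome 6. It was 0.911 on chromosome 10, 0.952 on chromosome 16, 0.870 on chromosome 17, 0.956 on chromosome 20, 0.921 on chromosome 21, 0.903 on chromosome 22 and 0.954 on chromosome X. Among single regions it was 0.914 in ct_20_32, 0.956 in censat_8_3, 0.958 in ct_14_72, 0.886 in ct_10_3 and 0.883 in ct_17_31. It was 0.931 in ct_16_69, 0.951 in mon_8_1, 0.868 in dhor_6_1, 0.880 in hsat3_9_3 and 0.967 in gsat_8_7. The etoposide library of replica 3 was also the shallowest, and the part of depth in these gaps was not tested.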

How the results depend on the processing

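No setting called a region or a class sum per chromosome. The count stayed at 0 with the replicate block, DESeq2, other scalings, no filter and each replica left out, for TOP2A alone, TOP2A minus input and TOP2A minus TOP2B, and at 0 with the 8 TOP2A libraries alone and with voom, which were run for TOP2A alone. The lowest adjusted p was 0.298, for class sums with the block and without replica 3, a setting chosen after seeing the data. The paired fit with the replicate block changed no call. Unadjusted p under 0.05 went to 14 regions for TOP2A, with 74 by voom, where 53.4 would be expected by chance in each. With the block the edgeR estimate turned its sign in 8 named regions, none of them called, to -0.030 in ct_17_31, -0.057 in ct_16_69, 0.26 in rDNA_21_1, -0.032 in ct_2_44, -0.40 in hor_16_4, -0.060 in hor_12_2, 0.039 in rDNA_13_1 and 0.54 in rDNA_22_1; the cause was not tested. Class sums with 1 direction in every replica kept, 3 of 85, became 3 to 54 when 1 replica was left out, 54 without replica 3, 9 without replica 2 and 6 without replica 1, partly because 3 signs match more often than 4. Regions with 1 direction, 8.17% of 257, became 11.7% to 49.8%, with 49.8% without replica 3 and 26.1% without replica 2; with a minimum mean of 200 reads they were 3.85%. In the edgeR fit of class sums, 62.8% were lower with TMM, 39.5% without a composition factor and 24.4% with RLE factors, and the median log2 change was -0.23, 0.11 and 0.24 in these settings. Adding 2 reads moved 1 named region by more than its SD. It was ct_20_26, whose mean went from -0.47 to -0.38 (SD 0.05). Some regions with a wide SD shifted further and so were not marked by this measure. Among them ct_20_32 went from -1.03 to -0.53 and censat_8_3 from -0.96 to -0.44. Likewise rDNA_14_1 went from -1.08 to -0.20 and rDNA_13_1 from -0.50 to -0.02. The etoposide library of replica 3, with 23900 region reads, limits every value that includes it.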
